A study of Mus musculus with 4 samples.

Results

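Interferon-stimulated genes are genes whose transcription is switched on by interferons, and 38 of them were followed across a time course of high-dose tamoxifen in the mouse stomach. The 38 were chosen by symbol, and a gene was read from probe sets annotated with exactly that symbol. Of the 38, 36 were measured, by 57 probe sets, among 18193 genes on the array. Isg15 and Ifi44 are not analysed here. Where a gene had several probe sets, which 16 of the 36 had, the one with the highest mean over the 4 arrays was used.

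Expression was measured in RNA labelled as gastric corpus epithelium, the lining of the acid-secreting part of the stomach, from wild-type mice 6 weeks old. There were 4 groups with 1 array each, vehicle at 2.5 days, tamoxifen at 12 hours, tamoxifen at 2.5 days and tamoxifen at 4.5 days, and every array held RNA pooled from 3 mice. Tamoxifen, a selective estrogen receptor modulator, was given into the peritoneum at 5 mg per 20 g of body weight, to bring on SPEM (spasmolytic polypeptide-expressing metaplasia). Its vehicle was 90% sunflower seed oil with 10% ethanol. The labels name 3 wild-type strains (C57BL/6, FVB/N and BALB/c) and 1 or 3 days of injection, with no word on which array had which, so strain or schedule and group cannot be told apart. With 1 array per group there is no spread between samples and no test, and each difference describes these pools. Vehicle was collected at 2.5 days only and served all 3 comparisons, so the 12-hour and 4.5-day differences also hold a difference in collection time.

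Interferons bind receptors at the cell surface, and the kinases JAK1 and TYK2 (for type I interferons) or JAK1 and JAK2 (for interferon gamma) then phosphorylate STAT proteins. STAT2 and IRF9 take part in a complex that binds the interferon-stimulated response element, a repeat of GAAA motifs in the promoters of many of these genes. Their products detect foreign or misplaced nucleic acid, block translation of viral RNA, degrade RNA or attack membrane-bound compartments of pathogens.

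The RefSeq promoters (GRCm38.p6) of the members were searched for the core of that element, GAAANNGAAA or, read on the other strand, TTTCNNTTTC. A window ran from 250 bases before to 50 bases after a gene's start, and overlapping matches were kept. Of the 36 members 25 had a window in the table. Of these 14 (56.0%) held a match, against 3.64% of the 14368 measured genes with a window. The list was made of known interferon-stimulated genes, so this share describes the list and not the response to tamoxifen. The members with no entry in the table were Dhx58, Zbp1, Oas2, Mx1, Mx2, Iigp1, Usp18, Parp9, Parp14, Ifi27 and Rtp4. Among the members at least 2-fold higher at 2.5 days, 8 of 13 with a window held a match, and among the others 6 of 12. A match is a run of letters, not a site shown to be bound. Irf7 and Oasl2, 4.26-fold and 3.77-fold higher at 2.5 days, had none in their windows, which says nothing about other sequences there. The lines below show, 5′ to 3′ along the gene, the stretch around the match in the 8 members with a match that were at least 2-fold higher at 2.5 days. After them come Eif2ak2 and Stat2, the members with a match whose difference at 2.5 days was smallest. Capitals mark the matched bases. A gene with several starts in the table counted once. Gbp3 and Trim30a had a second start in the table, without a match in Gbp3 and with a similar match in Trim30a, and 1 start of each is shown.
Ifit1, chr19:34640755-34640843 on the plus strand: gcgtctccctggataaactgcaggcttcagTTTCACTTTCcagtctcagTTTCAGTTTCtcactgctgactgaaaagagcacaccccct
Ifit3, chr19:34583343-34583446 on the plus strand: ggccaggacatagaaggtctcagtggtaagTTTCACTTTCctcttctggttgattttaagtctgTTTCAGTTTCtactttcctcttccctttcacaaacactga
Rsad2, chr12:26456533-26456602 on the minus strand: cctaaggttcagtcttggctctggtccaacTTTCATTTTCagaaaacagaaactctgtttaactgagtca
Bst2, chr8:71537557-71537632 on the minus strand: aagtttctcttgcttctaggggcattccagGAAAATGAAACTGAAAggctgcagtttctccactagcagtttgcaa
Gbp3, chr3:142559969-142560044 on the plus strand: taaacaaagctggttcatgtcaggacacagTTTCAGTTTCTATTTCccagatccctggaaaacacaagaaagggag
Irgm1, chr11:48871405-48871480 on the minus strand: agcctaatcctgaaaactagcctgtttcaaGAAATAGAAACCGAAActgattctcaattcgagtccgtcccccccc
Ifih1, chr2:62646206-62646253 on the minus strand: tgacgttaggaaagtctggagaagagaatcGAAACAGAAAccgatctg
Trim30a, chr7:104465190-104465259 on the minus strand: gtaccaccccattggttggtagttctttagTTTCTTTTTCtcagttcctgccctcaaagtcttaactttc
Eif2ak2, chr17:78882523-78882584 on the minus strand: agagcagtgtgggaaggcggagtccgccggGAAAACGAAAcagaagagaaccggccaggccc
Stat2, chr10:128270248-128270315 on the plus strand: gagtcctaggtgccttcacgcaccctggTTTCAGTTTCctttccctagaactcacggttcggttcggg
In Ifit1 the matches lay 104 to 76 bases before the start, in Gbp3 45 to 30 and in Irgm1 30 to 15 bases before it. In Ifih1 and Eif2ak2 the match lay just after the start. The matches of Bst2, Gbp3 and Irgm1 were overlapping pairs, in which 3 GAAA repeats (or TTTC on the shown strand) stood in a row.

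The interferon-stimulated genes were higher on the tamoxifen arrays at all 3 times, least at 12 hours and most at 2.5 and 4.5 days. At 2.5 days, the comparison with a vehicle array of the same day, 18 of the 36 members were at least 2-fold higher, against 2.33% of all genes, and none was at least 2-fold lower, against 1.36%. Their median difference was 1.01 on the log2 scale, where 1 is 2-fold, and the median of all genes was -0.02. Irf7, Ifit1, Ifit3 and Rtp4 had the largest differences, 2.09, 2.07, 1.98 and 1.98. Igtp, at 0.999, lay just short of 2-fold. Vehicle was the lowest of the 4 arrays for 34 members, as it was for 26.3% of all genes, and the lowest for 35 of 36 when the 12-hour array was left out, against 37.9%. The exceptions were Ifi27, which was highest in vehicle, and Ifit2, which was lowest at 12 hours. In bulk tissue, more cells of a type that expresses these genes and more RNA per cell cannot be told apart.

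At 12 hours 3 of 36 members were at least 2-fold higher, against 0.698% of all genes, and none was at least 2-fold lower, against 1.42%. These 3 were Ifit1, Rtp4 and Iigp1. The median over the members was 0.49, with 34 of the 36 above vehicle, beside 8453 of all 18193 genes. With the mean of all probe sets of a gene, Rtp4 was at 0.51 and Iigp1 at 0.83, which left 1 member past 2-fold, against 0.599% of all genes. With arrays centred on the median of all genes 6 were past it, against 0.852%. At 4.5 days 18 of 36 were at least 2-fold higher, against 2.62%, and none at least 2-fold lower, against 1.93%, with a median of 0.99. Of the members 16 were past 2-fold at both later times. Both comparisons use the same vehicle array, and the share of all genes past 2-fold in both was not counted. Ifih1 and Irf9 were past it at 2.5 days only, and Igtp and Oas2 at 4.5 days only. Each of the 4 was within 0.30 of the threshold at the other time. Dim genes are compressed on this scale, and 35 of the 36 members, all but Oas3, had a mean over the 4 arrays at or above the median of all probe sets. At a threshold of 1.5-fold 14 members were higher at 12 hours, against 2.67% of all genes, and 28 at 2.5 days, against 6.97%. In the step from 12 hours to 2.5 days 15 were higher by that much, against 5.54%. The 1 member lower by 1.5-fold at 2.5 and 4.5 days was Ifi27, against 5.17% and 6.52% of all genes, and with arrays centred on the median of all genes it was 2-fold lower at 2.5 days, against 1.54%. Among genes whose mean over the 4 arrays was at or above the median of all probe sets 0.935% were at least 2-fold higher at 12 hours, 3.22% at 2.5 days and 3.65% at 4.5 days.

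**Figure D1:**
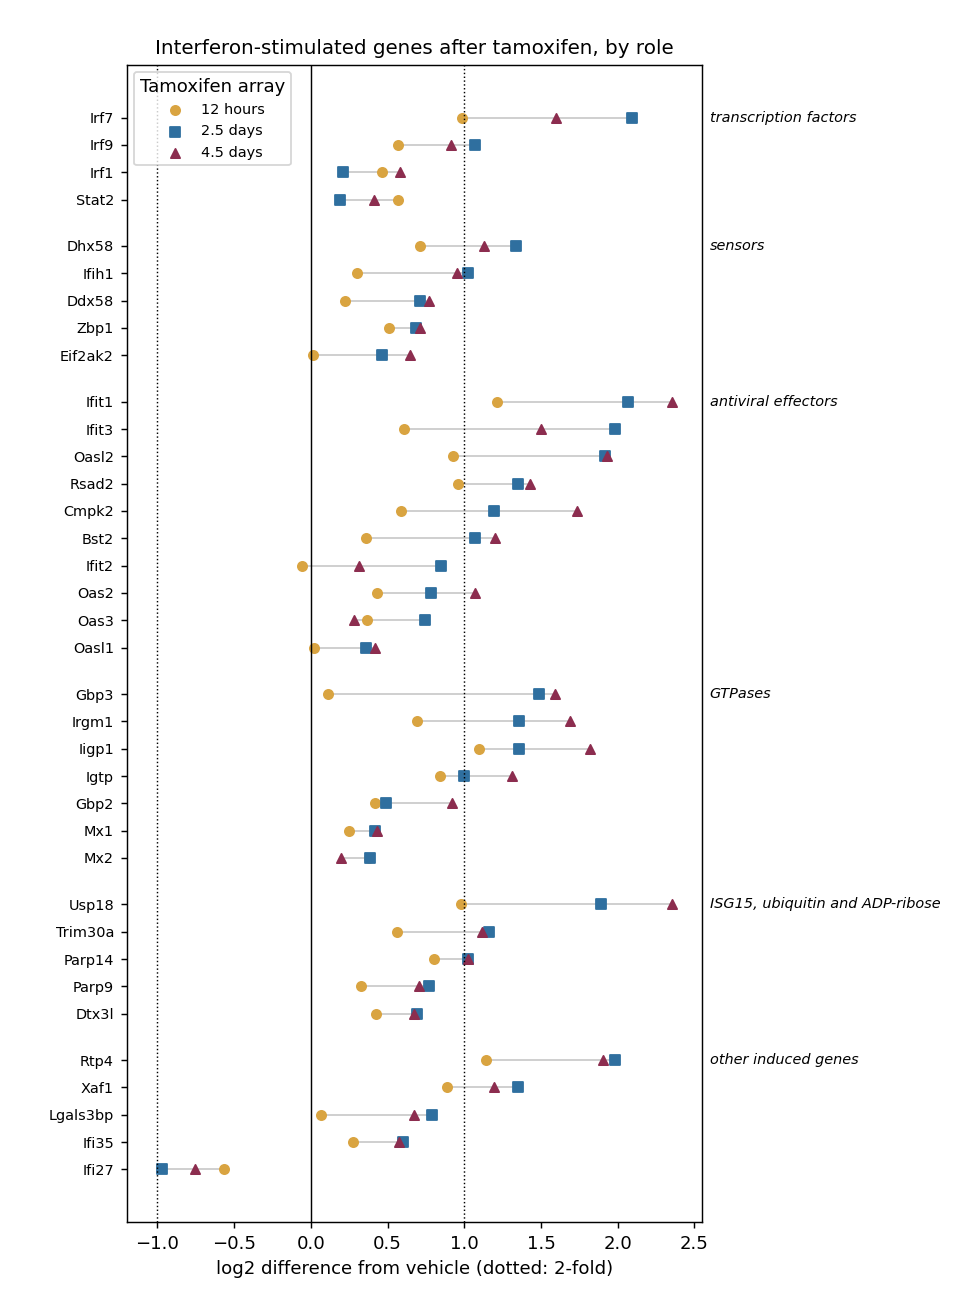
Difference of each of the 36 members from vehicle on the log2 scale (x axis), grouped by role, with a point for each tamoxifen array and dotted lines at 2-fold. Every member but Ifi27 has its 2.5-day and 4.5-day points right of 0, and most 12-hour points lie between 0 and 1.

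The size of a difference can be set against several gauges, none of which holds variation between mice. The 18 hybridisation control probe sets differed from vehicle with an SD of 0.10, 0.08 and 0.08 at 12 hours, 2.5 and 4.5 days, and the 27 poly-A controls with an SD of 0.19, 0.17 and 0.20. Over genes above the level filter the robust SD of the differences was 0.26, 0.35 and 0.38. For the 10 members with several probe sets above the array median, the differences given by those probe sets ranged over 0.28, 0.19 and 0.19 at the median. The largest such range was 0.73 at 12 hours, for Rsad2, 0.27 at 2.5 days and 0.29 at 4.5 days, and no member had probe sets past 2-fold in opposite directions.

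Levels and differences of single genes that follow are on the log2 scale of the deposited RMA values. Among the transcription factors, Irf7 and Irf9 were the members that differed most. Irf7, which drives type I interferon genes and amplifies the response, had a level of 6.13 in vehicle, 7.12 at 12 hours, 8.22 at 2.5 days and 7.73 at 4.5 days. Its difference of 2.09 at 2.5 days is 4.26-fold. Irf9, the DNA-binding partner of STAT2, was at 6.80 in vehicle, 7.37 at 12 hours, 7.87 at 2.5 days and 7.71 at 4.5 days, so both peaked at 2.5 days. Irf1, a factor strongly induced by interferon gamma, was at 8.35 in vehicle, 8.82 at 12 hours, 8.56 at 2.5 days and 8.93 at 4.5 days. Stat2, the STAT specific to type I and III interferons, was at 5.38 in vehicle, 5.95 at 12 hours, 5.57 at 2.5 days and 5.79 at 4.5 days. Irf1 and Stat2 were lower at 2.5 days than at 12 hours, with steps of -0.26 and -0.38, as was Ifi27 among the other members. The differences of Irf1 and Stat2 from vehicle at 2.5 days, 0.21 and 0.19, were the smallest of all positive ones. A dimmer Stat2 probe set, below the array median on all 4 arrays, had a step of 0.43. With the mean of all probe sets Stat2 differed from vehicle by 0.21 at 12 hours and 0.23 at 2.5 days.

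On the probe sets used, all 5 sensors were above vehicle on every tamoxifen array, with medians of 0.30, 0.71 and 0.77 at 12 hours, 2.5 and 4.5 days. Dhx58, which encodes LGP2, a relative of RIG-I that modulates its signal, was at 4.93 in vehicle, 5.64 at 12 hours, 6.26 at 2.5 days and 6.06 at 4.5 days. Ifih1, encoding the long double-stranded RNA sensor MDA5, was at 8.10 in vehicle, 8.40 at 12 hours, 9.12 at 2.5 days and 9.05 at 4.5 days. These were the sensors past 2-fold at 2.5 days, and of them Dhx58 alone was so at 4.5 days, with a difference of 1.13. Ddx58, encoding RIG-I itself, was at 7.56 in vehicle, 7.78 at 12 hours, 8.27 at 2.5 days and 8.33 at 4.5 days. A dimmer Ddx58 probe set, also above the array median, differed by -0.20, 0.50 and 0.59 at the 3 times. Zbp1, a sensor of Z-form nucleic acid that can trigger cell death, was at 5.90 in vehicle, 6.41 at 12 hours, 6.59 at 2.5 days and 6.61 at 4.5 days. Eif2ak2, encoding the kinase PKR that halts translation on double-stranded RNA, was at 6.70 in vehicle, 6.71 at 12 hours, 7.16 at 2.5 days and 7.34 at 4.5 days. At 12 hours this probe set lay within the spread of the control probe sets, while the gene's other probe sets differed by 0.30 and 0.43.

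The 10 antiviral effectors had median differences of 0.51, 1.13 and 1.32. At least 2-fold higher were 6 of 10 at 2.5 days and 7 of 10 at 4.5 days, against 2.33% and 2.62% of all genes. Ifit1, whose product binds viral RNA that lacks the host cap methylation, was at 6.07 in vehicle, 7.29 at 12 hours, 8.14 at 2.5 days and 8.43 at 4.5 days. Ifit3, its partner in a complex, was at 5.89 in vehicle, 6.49 at 12 hours, 7.87 at 2.5 days and 7.39 at 4.5 days. Both were thus above vehicle throughout, Ifit1 highest at 4.5 days and Ifit3 at 2.5 days. The third of the family, Ifit2, differed by -0.06 at 12 hours, 0.85 at 2.5 days and 0.31 at 4.5 days. Cmpk2, a mitochondrial nucleotide kinase gene, was at 5.99 in vehicle, 6.58 at 12 hours, 7.19 at 2.5 days and 7.73 at 4.5 days. Its neighbour Rsad2, which encodes viperin, an enzyme that makes a chain-terminating nucleotide, differed by 0.96, 1.35 and 1.43 at the 3 times. Bst2, encoding tetherin, which holds budding virus at the membrane, differed by 0.36, 1.07 and 1.20.

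The OAS family, which makes or is related to enzymes that make 2′-5′ oligoadenylate, the activator of RNase L, was uneven. Oasl2 was at 6.74 in vehicle, 7.67 at 12 hours, 8.65 at 2.5 days and 8.67 at 4.5 days. Oasl1, its neighbour on the chromosome, was the smallest of the effectors in its largest difference, at 10.06 in vehicle, 10.08 at 12 hours, 10.42 at 2.5 days and 10.48 at 4.5 days. The difference at 2.5 days was therefore 1.92 for Oasl2 and 0.36 for Oasl1. Oas2 differed by 0.43, 0.78 and 1.07, and Oas3, below the array median on all 4 arrays, by 0.36, 0.74 and 0.28.

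**Figure D2:**
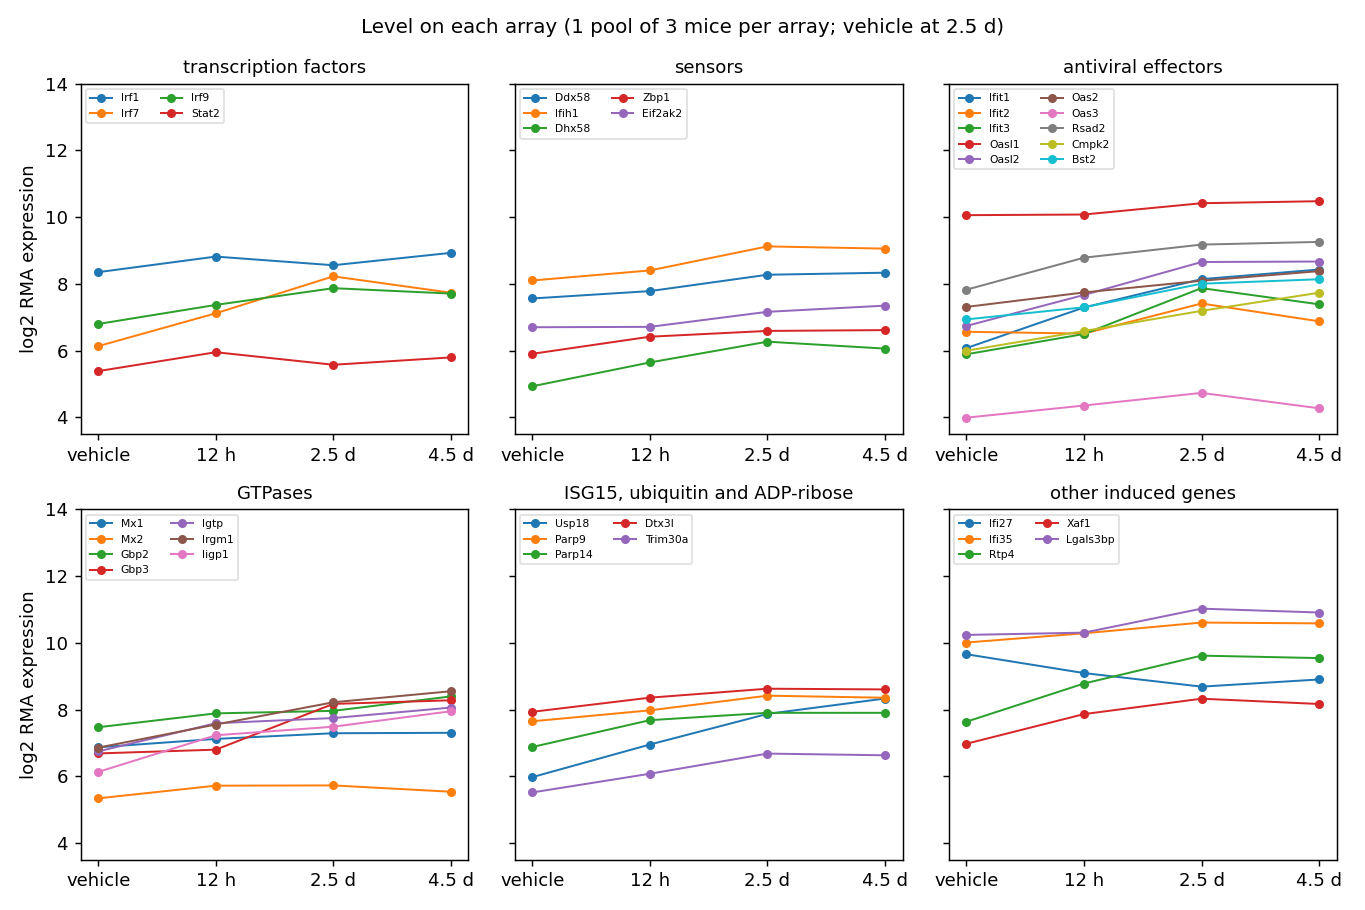
Level of each member on each array (y axis, log2 RMA expression), with vehicle and then the tamoxifen arrays in order of time on the x axis and a panel for each role. Each point is 1 array of RNA pooled from 3 mice, lines join the arrays of a gene, and Ifi27 is the 1 member whose vehicle point is its highest.

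The GTPases were split between the immunity-related and guanylate-binding families, which act on vacuoles that hold pathogens and respond strongly to interferon gamma, and the Mx proteins, which trap viral nucleocapsids. Iigp1 was at 6.13 in vehicle, 7.23 at 12 hours, 7.49 at 2.5 days and 7.95 at 4.5 days. Irgm1, which regulates the other immunity-related GTPases, was at 6.86 in vehicle, 7.55 at 12 hours, 8.22 at 2.5 days and 8.55 at 4.5 days. These courses and that of Igtp, at 6.75 in vehicle, 7.59 at 12 hours, 7.74 at 2.5 days and 8.06 at 4.5 days, were each highest at 4.5 days. Gbp3 was at 6.68 in vehicle, 6.80 at 12 hours, 8.17 at 2.5 days and 8.28 at 4.5 days, so nearly all of its difference from vehicle lay between 12 hours and 2.5 days. Gbp2 differed by 0.42, 0.49 and 0.92. Mx1, known to be defective in most inbred laboratory strains, differed by 0.25, 0.42 and 0.43. Mx2 was at 5.34 in vehicle, 5.72 at 12 hours, 5.73 at 2.5 days and 5.54 at 4.5 days. The Mx genes thus had the smallest differences of the group at 2.5 and 4.5 days.

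Isg15 encodes a ubiquitin-like protein that is joined to other proteins, and the genes grouped with it edit such marks or ADP-ribose. Usp18, the protease that removes ISG15 and also damps signalling at the type I interferon receptor, was at 5.97 in vehicle, 6.95 at 12 hours, 7.87 at 2.5 days and 8.33 at 4.5 days. Its difference of 2.36 at 4.5 days, 5.12-fold, stood beside 2.35 for Ifit1, and both were higher on each later array. Trim30a, a RING-domain gene of the mouse, was at 5.51 in vehicle, 6.08 at 12 hours, 6.68 at 2.5 days and 6.63 at 4.5 days. Parp14, an ADP-ribosyltransferase gene, was at 6.88 in vehicle, 7.68 at 12 hours and 7.90 at both 2.5 and 4.5 days. It is followed on the chromosome by Dtx3l and Parp9, whose products form a ubiquitin ligase complex. Parp9 was at 7.65 in vehicle, 7.98 at 12 hours, 8.42 at 2.5 days and 8.35 at 4.5 days. Dtx3l was at 7.93 in vehicle, 8.36 at 12 hours, 8.62 at 2.5 days and 8.60 at 4.5 days. The differences of this neighbouring pair were within 0.10 of each other on every tamoxifen array, and neither passed 2-fold.

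The remaining members were 5 genes of other or less settled roles, 1 of which, Ifi27, was lower on every tamoxifen array. Rtp4, which encodes a receptor transport protein, was at 7.64 in vehicle, 8.78 at 12 hours, 9.62 at 2.5 days and 9.54 at 4.5 days. Xaf1, a gene known to promote apoptosis, was at 6.98 in vehicle, 7.86 at 12 hours, 8.32 at 2.5 days and 8.17 at 4.5 days. Both were above vehicle on every tamoxifen array, and past 2-fold at both later times. Lgals3bp, encoding a secreted glycoprotein, was at 10.24 in vehicle, 10.31 at 12 hours, 11.02 at 2.5 days and 10.91 at 4.5 days. Ifi35 was at 10.01 in vehicle, 10.29 at 12 hours, 10.61 at 2.5 days and 10.58 at 4.5 days. Ifi27 ran the other way, at 9.66 in vehicle, 9.09 at 12 hours, 8.69 at 2.5 days and 8.90 at 4.5 days. Its other probe set gave differences of -0.28, -0.75 and -0.47, against -0.56, -0.97 and -0.76 for the one used. A related gene of the same family, Ifi27l2a, differed by -0.23, 1.20 and 0.76.

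**Figure D3:**
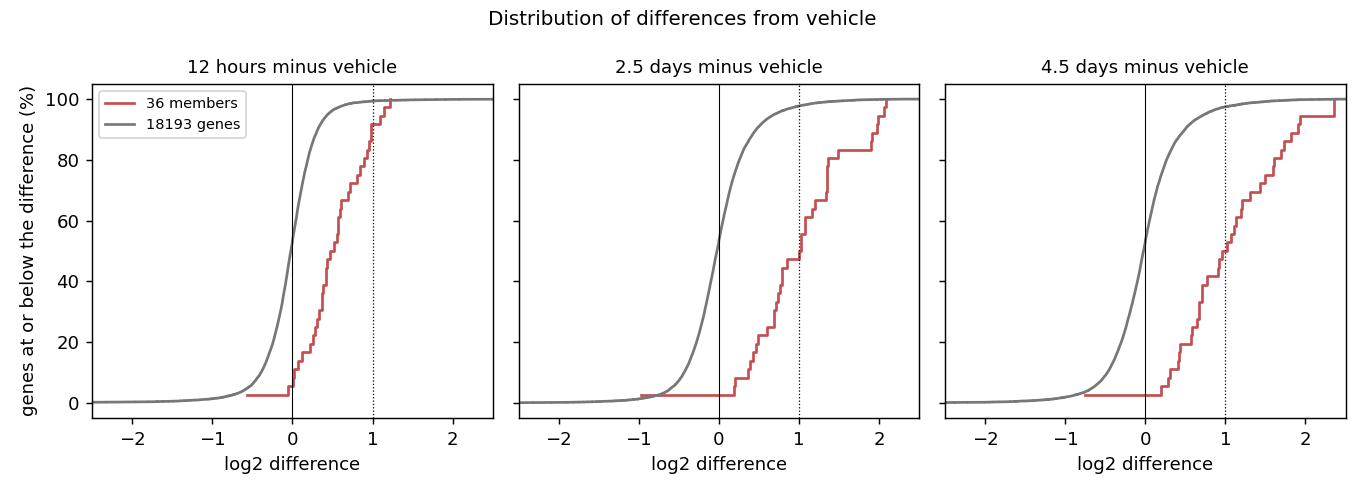
Cumulative share of genes (y axis, percent) at or below each log2 difference from vehicle (x axis), in a panel for each tamoxifen array, for the 36 members and all 18193 genes, with the dotted line at 2-fold higher. The members' curve lies right of that of all genes over nearly its whole length, with medians of 0.49, 1.01 and 0.99 against -0.02 at each time.

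Between the tamoxifen arrays, which leave the vehicle array out, 33 of 36 members were higher at 2.5 days than at 12 hours, against 50.2% of all genes, with a median of 0.46. At least 2-fold higher were 3 of 36, Ifit3 at 1.38, Gbp3 at 1.37 and Irf7 at 1.11, against 1.86% of all genes, and none was at least 2-fold lower, against 0.456%. The count was 8 with arrays centred on the hybridisation controls, against 2.61% of all genes, and 1 of 27 with unique probe sets only, against 1.7%. The 12-hour array of this step is the one on which pancreatic acinar genes were far higher than on the others. The 3 that were lower at 2.5 days, on the probe sets used, were Irf1, Stat2 and Ifi27. The step from 2.5 to 4.5 days had a median of 0.02 over the members. No member was 2-fold higher or lower, against 0.17% and 0.132% of all genes. Of the members 20 were higher at 4.5 days and 16 lower, beside 8762 higher and 9302 lower of all 18193 genes. The step was 0.30 or more in size for 11 members. Cmpk2, Iigp1, Usp18, Gbp2, Irf1, Irgm1 and Igtp were higher at 4.5 days, by 0.54, 0.46, 0.46, 0.43, 0.37, 0.33 and 0.31. Ifit2, Irf7, Ifit3 and Oas3 were lower, with steps of -0.53, -0.49, -0.48 and -0.46. These 11 steps were larger than the SD of the hybridisation controls for that pair, 0.05, and than the robust SD over genes, 0.15. The SD of the 27 poly-A controls for that pair was larger than both, 0.17. Oas3 lay below the array median on all 4 arrays. Among the GTPases 6 of 7 were higher at 4.5 days than at 2.5 days, with a median step of 0.31.

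**Figure D4:**
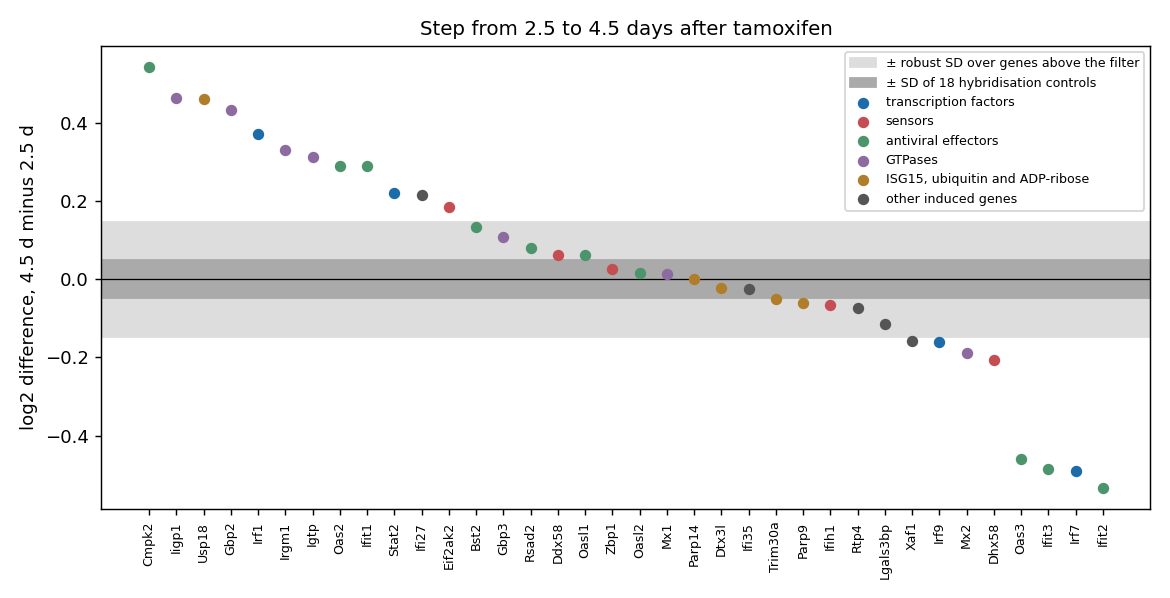
Step of each member from 2.5 to 4.5 days after tamoxifen (y axis, log2 difference, 4.5 days minus 2.5 days), ordered by size and coloured by role, with grey bands for the SD of 18 hybridisation controls (0.05) and the robust SD over genes above the level filter (0.15). Cmpk2 and Iigp1 stand at the upper end and Oas3, Ifit3, Irf7 and Ifit2 at the lower end.

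In the lists upstream of the members few measured genes were past 2-fold, and few of all genes were. Of all genes 0.698%, 2.33% and 2.62% were at least 2-fold higher at 12 hours, 2.5 and 4.5 days. At least 2-fold lower were 1.42%, 1.36% and 1.93%. Of 20 listed interferon genes 9 were measured and 11 are not analysed here. The 9 had medians of 0.08, -0.05 and -0.09 at the 3 times, none of them past 2-fold, and 8 of the 9 lay below the array median on all 4 arrays. Ifna2 differed by -0.35, -0.36 and -0.13, Ifng by -0.25, -0.20 and -0.31 and Ifna11 by 0.27, -0.05 and 0.14. Of the 6 receptor genes, Ifngr2, encoding a chain of the interferon gamma receptor, was past 2-fold at 12 hours only, at 1.06, 0.42 and 0.21. Ifnlr1, of the type III interferon receptor, differed by 0.52, 0.29 and 0.24. Among 6 genes of the relay, Irf8, which is also a gene of the myeloid lineage, differed by 0.20, 0.59 and 1.12 and was the 1 past 2-fold, at 4.5 days. Of 7 feedback inhibitors, the phosphatase gene Ptpn2 was past 2-fold at 2.5 and 4.5 days, at 0.19, 1.01 and 1.09, and Socs3, an inhibitor of JAK kinases, differed by 0.67, 0.46 and 0.89. None of 11 genes for adaptors and kinases that induce interferon was past 2-fold. In that list Mavs, the adaptor of RIG-I and MDA5, differed by -0.39, -0.28 and -0.28, the kinase gene Tbk1 by 0.16, 0.39 and 0.35, and Ikbke by -0.07, 0.17 and 0.44.

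Downstream, 41 other interferon-induced genes had medians of 0.22, 0.48 and 0.67 at 12 hours, 2.5 and 4.5 days. Of these 2, 11 and 10 were at least 2-fold higher, against 0.698%, 2.33% and 2.62% of all genes. None was at least 2-fold lower, against 1.42%, 1.36% and 1.93%. Slfn4, a gene of myeloid cells, had a difference of 2.73 at 12 hours and 1.81 and 1.89 at the later times. Ifi204, a DNA sensor gene, differed by 0.42, 2.01 and 1.28, but it lay below the array median on all 4 arrays. Ido1, an enzyme of tryptophan breakdown, differed by 0.87, 0.24 and 1.92. Of the chemokine genes that interferon gamma induces, Cxcl9 differed by 1.45, 0.64 and 1.65, Cxcl10 by 1.59, 1.15 and 0.98 and Cxcl11 by 0.58, 0.18 and 0.10. All 3 were further above vehicle at 12 hours than at 2.5 days, with Cxcl11 below the array median on all 4 arrays. All 9 genes of MHC class I presentation were above vehicle at each time, with medians of 0.52, 0.65 and 0.72. Nlrc5, the activator of that pathway, differed most, by 1.51, 1.72 and 2.17, followed by the immunoproteasome genes Psmb8, at 0.84, 0.84 and 1.04, and Psmb10, at 0.52, 0.75 and 0.87. The 6 genes of MHC class II presentation had medians of 0.04, -0.04 and 0.42 and none past 2-fold, with H2-DMa at 0.32, 0.85 and 0.85, Cd74 at 0.21, -0.06 and 0.59 and H2-Ab1 at -0.01, -0.02 and 0.55.

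**Figure D5:**
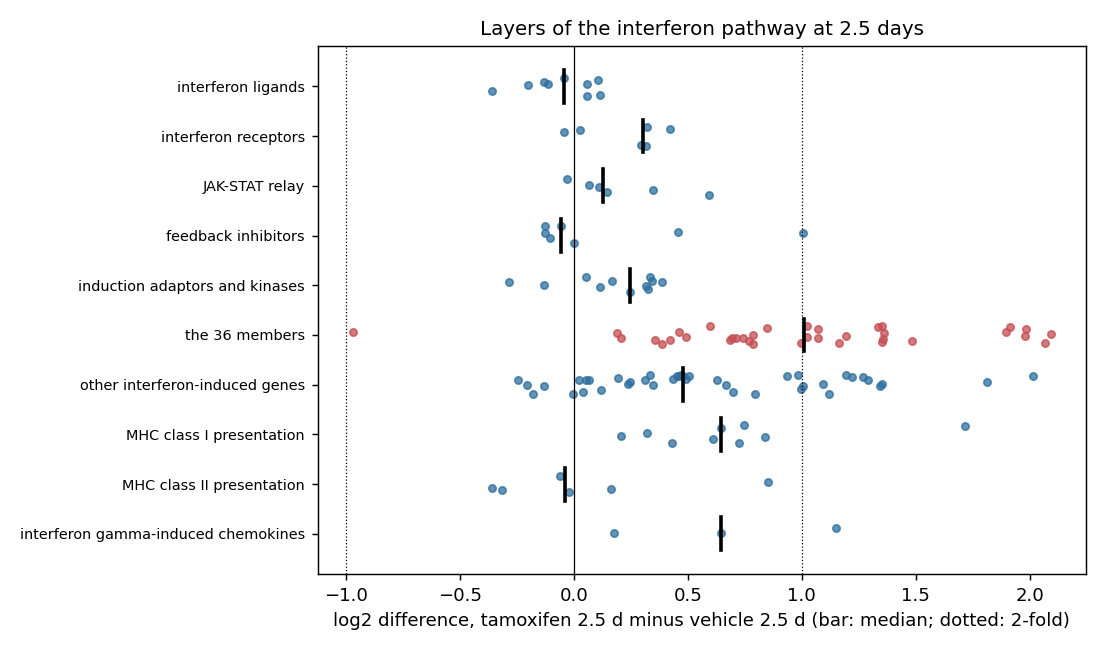
Difference of single genes between tamoxifen and vehicle at 2.5 days (x axis, log2), with a row for each layer of the interferon pathway, the 36 members in red, a black bar at each median and dotted lines at 2-fold. The members' median is 1.01, while those of the ligand, receptor, relay, inhibitor and adaptor lists lie between -0.06 and 0.30.

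Several of these genes are also expressed by immune cells, whose marker lists did not all run one way. The 5 genes of all leukocytes had median differences of 0.59, 0.90 and 0.92 at the 3 times, beside 0.49, 1.01 and 0.99 for the members, and a summed linear level of 1345 in vehicle, 1400 at 12 hours, 1869 at 2.5 days and 1825 at 4.5 days. Lcp1 differed by -0.38, 0.06 and 0.01, and the other 4 of them were above vehicle at every time. The 9 macrophage and monocyte genes summed to 2762 in vehicle, 3048 at 12 hours, 4134 at 2.5 days and 4141 at 4.5 days. Their median differences were 0.35, 0.99 and 0.76. At 2.5 days 4 of the 9, Cd68, Cd14, C1qa and C1qc, were at least 2-fold higher, against 2.33% of all genes. Csf1r, Adgre1, Fcgr1 and Ccr2 differed by 0.02, 0.04, 0.07 and -0.21 at that time. The 4 neutrophil genes had medians of 0.11, 0.56 and -0.20, with S100a8 at 1.36, 2.77 and 0.71 and S100a9 at -0.15, 1.12 and -0.41. Csf3r, at -0.06, 0.01 and -0.09, and Cxcr2, at 0.28, -0.23 and -0.31, were below the array median on all 4 arrays. The lymphocyte lists had medians below 0 at 2.5 and 4.5 days. The 11 T and NK cell genes had medians of 0.05, -0.09 and -0.03 and summed to 358 in vehicle, 391 at 12 hours, 314 at 2.5 days and 343 at 4.5 days, and 8 of the 11 were below the array median on all 4 arrays. The 5 B and plasma cell genes had medians of -0.06, -0.36 and -0.55, with Jchain at -0.06, -0.91 and -0.81. Sdc1 ran the other way, at 0.21, 0.28 and 0.64, and 3 of the 5 were below the array median on all 4 arrays. The summed linear level of the 5 was 957 in vehicle, 1079 at 12 hours, 1103 at 2.5 days and 1392 at 4.5 days. Most of this sum was Sdc1, at a log2 level of 9.73 in vehicle and 10.37 at 4.5 days. The next highest, Jchain, was at 5.69 in vehicle and 4.87 at 4.5 days. The 4 genes other than Sdc1 were below vehicle at both later times. Of 7 genes listed for plasmacytoid dendritic cells, known producers of type I interferon, the 2 past 2-fold at 2.5 days were Bst2, itself a member, and Clec10a, which is better known from macrophages and other dendritic cells, while Siglech and Ccr9 were below the array median on all 4 arrays.

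The 6 pan-epithelial genes, which check the labelled tissue, had a mean log2 level of 12.65 in vehicle, 13.02 at 12 hours, 12.94 at 2.5 days and 12.98 at 4.5 days. The 6 smooth muscle genes had a mean log2 level of 12.09 in vehicle, 11.68 at 12 hours, 11.38 at 2.5 days and 11.44 at 4.5 days. The specialised epithelial cells were not steady. The 5 parietal cell genes, of the acid-secreting cells, had medians of -1.24, -1.34 and -1.31 at the 3 times, and all 5 were at least 2-fold lower at both 2.5 and 4.5 days. The 4 chief cell genes, of the cells that secrete digestive enzymes, had medians of -0.21, -1.72 and -2.41, and all 4 were at least 2-fold lower at both later times. The part of immune, muscle or epithelial cell content in the differences of the members was not tested.

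The 12-hour array stood apart in the genes of neighbouring tissues. Over 8 genes of pancreatic acinar cells the median difference from vehicle was 7.21 on that array, -0.28 at 2.5 days and -0.47 at 4.5 days. Over 8 genes of squamous epithelium it was -5.64, -0.63 and -0.43. At 12 hours 7 of the 8 acinar genes were at least 2-fold higher, against 0.698% of all genes, all but Clps, at -0.03. Of the 8 squamous genes 6 were at least 2-fold lower at 12 hours, against 1.42% of all genes. The exceptions, Sprr1a and Ivl, differed by 1.14 and 0.07 at that time, and Ivl by 1.98 and 1.54 at the later times. The part of other tissue in the members' smaller differences at 12 hours was not tested. The 2.5-day and 4.5-day differences do not subtract the values of that array. RMA brings arrays to a common distribution, however, and it was not redone without that array. Choosing probe sets without it left the counts of 18 members at both times as they were.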

How the data were processed

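RNA of the gastric corpus epithelium was hybridised to 4 Affymetrix mouse expression arrays (45101 probe sets), 1 array for each group and 3 mice pooled per array, per the labels' protocols. The deposited values are log2 expression. Per the submitters' processing notes, the authors used Partek and RMA, whose versions are not stated there. Log base 2 was taken from the range of the values, 2.06 to 14.85. RMA corrects background, sets the arrays to 1 distribution by quantiles and summarizes probes, which would hide any change common to most genes.

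The 64 control probe sets and the 932 probe sets with several gene symbols were left out of the gene table. Differences of log2 values were taken between arrays for 18193 genes, counted at or past 2-fold, and set beside the same counts over all genes. The rule was tested on simulated data. The level filter was a mean over the 4 arrays of 5.33, the median over probe sets. Python 3.11.15, pandas 2.3.3 and numpy 2.4.6 were used.

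The members, roles and lists were chosen with earlier results of these data known. Given in full were, in each role, the 4 members with the largest absolute difference from vehicle and the 1 with the smallest; from each pathway list up to 3 genes with the largest. Ifi27l2a, Lcp1, C1qa, Csf1r, Adgre1, Fcgr1, Ccr2, Csf3r, Cxcr2, Sdc1, Clec10a, Siglech, Ccr9, Clps, Sprr1a and Ivl were named after their values were seen. Promoters are those of RefSeq, matched by gene ID, and their orientation was checked by the place of TATAAA. Alternatives were other choices of probe set, scalings, level filters and a 1.5-fold threshold. The number of arrays limits the precision.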

Additional observations from a re-analysis of the deposited data

Results flagged for a closer look

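Ifit2 was the 1 member whose sign against vehicle differed between times. It was at -0.055 at 12 hours, beside 0.85 at 2.5 days and 0.31 at 4.5 days, with 1 array each. The difference between times was not tested. The 12-hour value lies within the SD of the hybridisation controls, 0.10, and with arrays centred on the median of all genes it was 0.00.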

How the results depend on the processing

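No member value past 2-fold changed sign under any of the alternatives run, and 14 of 184 such values came to lie under 2-fold. Not all of the 184 could change, because a member with 1 probe set keeps its value under the choices of probe set. With the mean of all probe sets 1 member was 2-fold higher at 12 hours, 14 at 2.5 days and 13 at 4.5 days, in place of 3, 18 and 18. The medians were then 0.36, 0.78 and 0.80 at the 3 times. Under that setting Rtp4 (0.51) and Iigp1 (0.83) were under 2-fold at 12 hours, Dhx58, Cmpk2, Parp14 and Xaf1 at 2.5 days (0.38, 0.58, 0.47 and 0.75) and at 4.5 days (0.36, 0.94, 0.47 and 0.68), and Rtp4 at 4.5 days (0.998). With unique probe sets only, which 27 members have, the 2.5-day median was 0.85 and 1 member was 2-fold higher in the step from 12 hours. Centring on the median of all genes gave 6 higher members at 12 hours and 1 lower at 2.5 days, Ifi27 at -1.02. Hybridisation controls differed from vehicle by 0.04, -0.13 and -0.16 on average. Centring on them gave medians of 1.14 at 2.5 days and 1.15 at 4.5 days, and for the step from 12 hours to 2.5 days a median of 0.63 and 8 higher members. At 1.5-fold 14 members were higher at 12 hours and 28 at 2.5 days, 15 were higher in the step from 12 hours, and 1, Ifi27, was lower at 2.5 and at 4.5 days. The 2 level filters, and probe sets chosen without the 12-hour array (an alternative chosen after seeing the data), moved no count by over 1.5 times. Leaving out a replicate was not possible with 1 array per group, and variation between mice was not measured.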
